A study of Homo sapiens with 4 samples.

Results

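Polysomal RNA of LS180 cells with RBM35A switched on was compared with polysomal RNA of LS180 cells with RBM35A off. LS180 is an established human colon carcinoma line, and RBM35A is the older name of ESRP1. The study held 4 Affymetrix HG-U95Av2 arrays, 1 for each pairing of RBM35A state with RNA fraction, polysomal or total. Genes were taken from probe sets, other than controls, with exactly 1 gene symbol, and the brightest probe set of a gene, by its mean on all 4 arrays, stood for that gene. Log2 values below 5 were set to a floor of 5, and a gene counted as measured when it reached 5 on at least 1 of the 2 polysomal arrays. This left 3391 of 8225 genes, of which 82 lay under the floor on 1 of the polysomal arrays.

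The RBM35A+ cells carried a Tet-off system and had been kept without doxycycline for at least 6 days, which restored RBM35A protein per the labels' protocols. Doxycycline was maintained in the RBM35A- cells. These are labelled parental, and whether the RBM35A construct was present in them is not stated, so RBM35A, doxycycline and possibly the line itself differed together and cannot be told apart. Cells were grown to at most 80% confluency, 2 plates were lysed for each polysomal preparation, and cycloheximide was present in the washes before lysis. Lysates were cleared of nuclei and spun through sucrose gradients, which were collected in 15 fractions, and those that carried polysomes were pooled. Per the labels the polysomal arrays measured polyA RNA, but a poly(A) selection step is missing from the protocols, and 10 µg of RNA was labelled for an array. Each RBM35A state had 1 polysomal array, so no value below has a replicate check or a p-value.

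ESRP1 is an RNA-binding protein of epithelial cells, best known for controlling the exons that distinguish epithelial from mesenchymal isoforms of genes such as CD44. Polysomes are mRNAs that carry several ribosomes at once, and cycloheximide holds those ribosomes in place during lysis. The amount of a transcript in the polysomal pool thus depends both on how much of it the cell contains and on the share of it engaged by several ribosomes. A value on such an array is relative to the other polysomal transcripts on it. Fewer cells that express a gene and less RNA per cell cannot be told apart in such bulk samples.

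No probe set of the array is annotated to ESRP1 (0) or to its paralogue ESRP2 (0), so the RBM35A state rests on the labels. The labelled cell type was checked against its markers. Of 18 intestinal epithelial markers on the array, 16 were measured in polysomal RNA, and their summed level was 14.97 (log2) on the RBM35A- array and 14.77 on the RBM35A+ array. Keratin KRT8 read 13.45 and 13.21, the adhesion protein EPCAM 10.28 and 10.35, and the gut transcription factor CDX1 9.13 and 9.12. Markers of other cell types were mostly under the floor on both arrays, with 12 of 14 haematopoietic and 14 of 15 fibroblast or endothelial markers there. The exceptions were HBB (5.13 and 5.17), PF4 (6.32 and 6.39) and COL1A1 (5.56 and 5.58). Summed levels were 7.63 and 7.67 for the haematopoietic list and 6.93 and 6.94 for the fibroblast and endothelial list.

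The RBM35A+ polysomal array stood apart in its 5′ controls. The beta-actin transcript is read by controls along its length. Its 5′ control read 10.29 on the RBM35A- array and 9.42 on the RBM35A+ array, its central control 13.29 and 12.85, and its 3′ control 13.95 and 13.93. GAPDH showed the same order, with differences (RBM35A+ minus RBM35A-) of −0.79 for the 5′, −0.33 for the central and −0.13 for the 3′ control. The RBM35A+ array was thus lower at 5′ positions of these transcripts and close to the other array at 3′ positions. Bacterial spike-in controls for BioC, BioDn and CreX, which do not come from the cells, differed by between −0.30 and 0.37. Their order from end to end was the opposite, with 5′ and 3′ differences of 0.37 and 0.30 for BioC, 0.17 and 0.03 for BioDn, and 0.22 and −0.30 for CreX. In total RNA the 5′ probe sets differed by −0.05 for beta-actin and −0.03 for GAPDH. Both polysomal arrays lay under total RNA at 5′ positions: without RBM35A, polysomal minus total RNA was −4.51, −2.29 and −0.30 at the 5′, central and 3′ controls of beta-actin, and −1.83, −1.21 and −0.16 at those of GAPDH. Positions of the other probe sets within their transcripts were not analysed here, and the part of this difference in any gene's value was not tested.

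**Figure D1:**
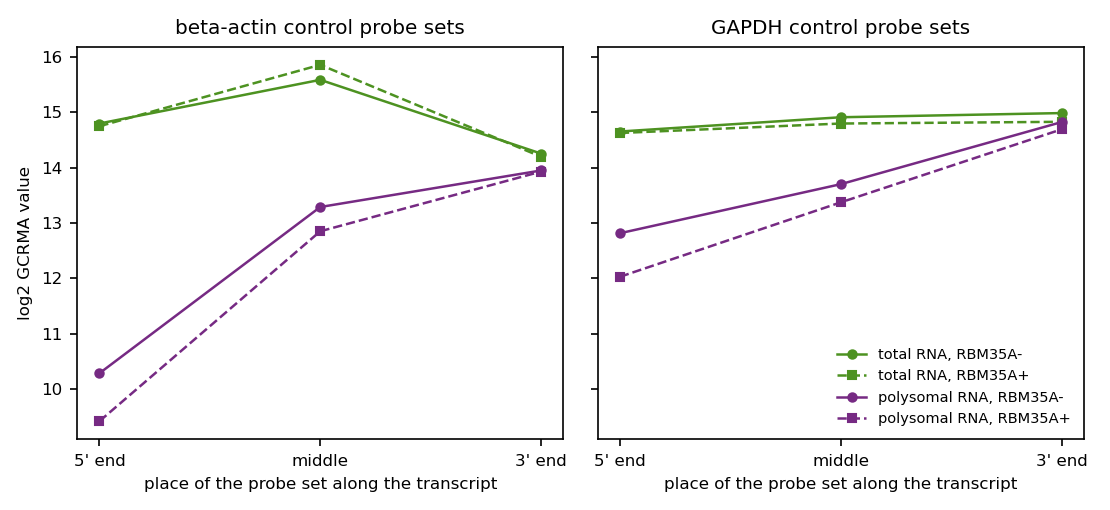
Log2 values (y axis) of the 5′, middle and 3′ controls (x axis) for beta-actin and for GAPDH on each of the 4 arrays, 1 point per array. The RBM35A+ minus RBM35A- difference in polysomal RNA is −0.86 at the beta-actin 5′ control and −0.79 at that of GAPDH, and the polysomal arrays nearly meet at the 3′ controls.

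Few polysomal transcripts differed by much between the cells with and without RBM35A. Of the 3391 genes, 3321 (97.9%) lay within 1.5-fold. At least 1.5-fold higher with RBM35A were 26 genes (0.767%), and 44 (1.3%) were at least 1.5-fold lower. At 2-fold, 0 genes (0%) were higher and 6 (0.177%) were lower, so the larger differences lay on the side of lower polysomal levels. Small differences leaned the other way: 1913 genes (56.4%) were above 0 and 1451 (42.8%) below, with a median of 0.02 and quartiles of −0.10 and 0.13. The SD of the differences over all genes was 0.224. Probe sets of the same gene gave a gauge of spread: over 847 of them in 390 genes, the SD of a single probe set's difference was 0.192. This spread mixes reading error with any real difference between the parts or variants of a transcript that the probe sets read. That figure covers probes on the same pair of arrays and not differences between cultures, and most genes lay within it.

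**Figure D2:**
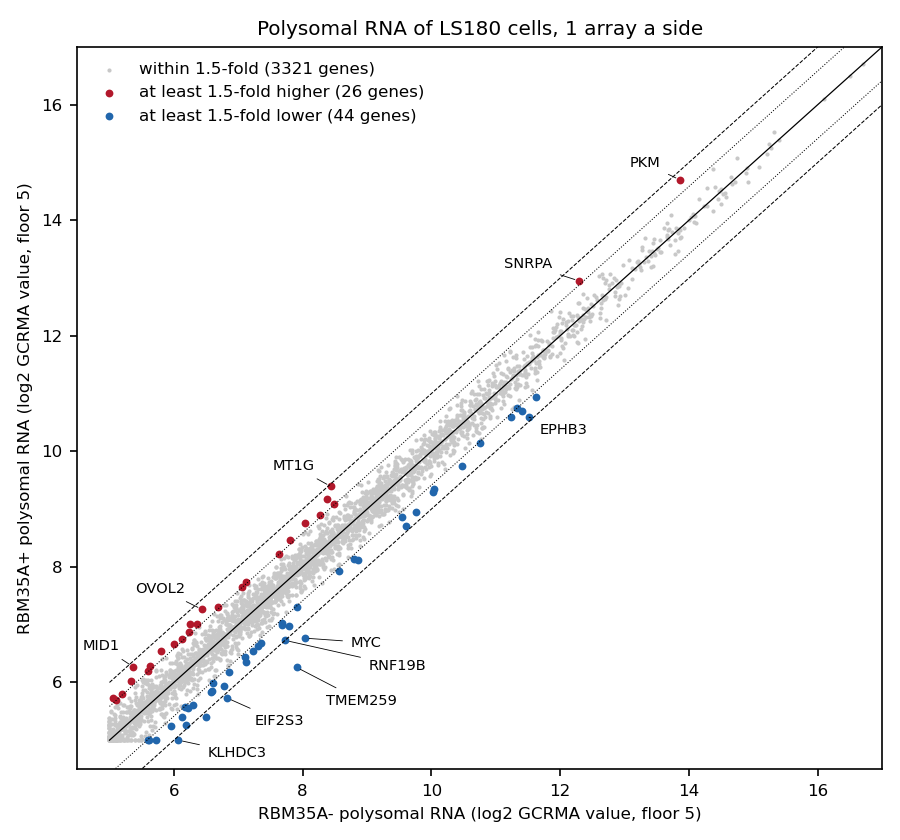
Log2 GCRMA value of each of the 3391 genes on the RBM35A- polysomal array (x axis) and the RBM35A+ polysomal array (y axis), with lines at 1.5-fold and 2-fold. The 44 genes in blue are at least 1.5-fold lower and the 26 in red at least 1.5-fold higher, and 6 points lie on or beyond the 2-fold line, all of them lower.

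The 6 transcripts lower by at least 2-fold encode proteins of different kinds. TMEM259, also called membralin, is a membrane protein of the endoplasmic reticulum. It read 7.91 on the RBM35A- and 6.26 on the RBM35A+ polysomal array, which is 3.13-fold lower. On the total RNA arrays it read 9.72 and 9.72. MYC, a transcription factor that drives growth and whose mRNA is short-lived, read 8.04 and 6.77, which is 2.41-fold lower, against 9.40 and 9.19 in total RNA. Its other measured probe sets also lay below 0, at −0.69 (7.16 and 6.47) and −0.04 (5.36 and 5.32). A further MYC probe set was under the floor in polysomal RNA, at 2.22 on both arrays, but read 7.87 and 7.61 in total RNA. The size of the MYC difference thus depended on the probe set. EIF2S3 is the gamma subunit of eIF2, the factor that brings initiator tRNA to the ribosome. It read 6.83 and 5.73 (2.14-fold lower), against 8.86 and 8.81 in total RNA. A further probe set of EIF2S3 read 5.98 and 4.88, which with the floor gives −0.98, a lower bound in size.

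CCDC85B, a small coiled-coil protein, read 6.50 and 5.41 in polysomal RNA (2.12-fold lower). Its chosen probe set is of shared sequence, a type that can read more than 1 transcript. The other CCDC85B probe set lay under the floor, at 2.51 on both polysomal arrays. CCDC85B was also the member of the 6 with the lowest total RNA difference, −0.51. KLHDC3, a kelch-repeat substrate receptor of a ubiquitin ligase, read 6.07 and 4.64, so it was at least 2.10-fold lower given the floor. Its total RNA values were 10.68 and 10.28. RNF19B, a RING-type ubiquitin ligase, read 7.73 and 6.73 (2.01-fold lower), with a total RNA difference of −0.13. MYC, at 8.04, was the highest of the 6 on the RBM35A- polysomal array, and the highest total RNA difference among them was −0.00, that of TMEM259. With a floor of 6, or after removal of the trend on the polysomal minus total difference, 3 genes were at least 2-fold lower in place of 6. Without probe sets of shared sequence, 5 genes were at least 2-fold lower, and 4 of these were among the 6.

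The other 38 lower transcripts, between 1.5-fold and 2-fold, were of several kinds. Among receptors and signalling proteins, EPHB3, a receptor for ephrins that positions cells along the intestinal crypt, read 11.52 and 10.59. It was 1.90-fold lower at a high level, and its total RNA difference of −0.47 was the second lowest of the 44, after CCDC85B. DVL1, a relay of Wnt signals, read 5.61 and 4.73 (at least 1.53-fold lower). RPS6KB2, a kinase that phosphorylates ribosomal protein S6, had a difference of −0.68 (10.04 and 9.36). PLCB3, a phospholipase downstream of G proteins, was at −0.65 (6.22 and 5.56). These kinase and phospholipase transcripts were level in total RNA, at −0.01 for RPS6KB2 and 0.04 for PLCB3. The phosphoserine-binding adaptors YWHAE (7.36 and 6.69) and YWHAZ (11.33 and 10.74) were both lower, and in total RNA both were close to 0, at 0.02 and 0.03. A further YWHAZ probe set read 8.73 and 7.88, a difference of −0.84. PPP5C, a serine/threonine phosphatase, read 6.59 and 5.85 on its chosen probe set and 6.70 and 5.04 on another, a difference of −1.66 and so the lowest of any second probe set of the 70 genes.

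Stress and feedback genes formed another kind. TXNIP, an inhibitor of thioredoxin and of glucose uptake, read 9.77 and 8.94 (1.77-fold lower), with −0.08 in total RNA. DDIT4, an inhibitor of mTORC1 that is induced by stress, read 10.03 and 9.30 (1.65-fold lower), with −0.37 in total RNA. CIRBP, a cold-inducible RNA-binding protein, read 10.47 and 9.74 (1.66-fold lower), with −0.01 in total RNA. All 3 lay above the median polysomal level of the 44 genes, 7.05, and DDIT4 was the lowest of the 3 in total RNA. BNIP3, a mitochondrial protein of mitophagy, was at −0.68. The early response genes IER3 (8.56 and 7.93) and PHLDA1 (7.68 and 7.02) were at −0.63 and −0.66, and CCNG1, a target of p53, was at −0.72 (5.95 and 5.24).

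Nuclear proteins among the lower transcripts included BANF1, which bridges DNA and the nuclear lamina, at 11.41 and 10.70. E2F4, a mostly repressive cell cycle transcription factor, read 6.13 and 5.41, but its other measured probe set differed by only −0.09. The repressor ZBTB7A (7.91 and 7.30) and the chromatin protein HMGN4 (6.17 and 5.58) were lower in polysomal RNA and slightly higher in total RNA, at 0.16 and 0.17. The other probe set of HMGN4 was at −0.11. TSPYL2 was at −0.63, BCL7B, a subunit of SWI/SNF complexes, was lower by at least 1.65-fold, and the zinc finger gene ZNF428 was at −0.89 (9.60 and 8.71). Of RNA-processing factors, HNRNPH1, a splicing regulator that binds G-rich RNA, read 7.12 and 6.35, and the spliceosome-associated ubiquitin ligase PRPF19 read 6.86 and 6.18.

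Metabolic and mitochondrial transcripts included PCK1, the cytosolic enzyme that commits oxaloacetate to gluconeogenesis, at 6.19 and 5.27. CYP1A1, a cytochrome P450 induced by the aryl hydrocarbon receptor, read 6.78 and 5.94, and another of its probe sets read 6.09 and 4.74. In total RNA the chosen CYP1A1 probe set was at −0.01 and the other at −0.76. ATP5F1A, the alpha subunit of the ATP synthase, read 7.78 and 6.99, against 11.24 and 11.06 in total RNA. MRPL28, of the mitochondrial ribosome, read 7.67 and 6.99, but a further probe set of it differed by −0.00. The lipid genes LDAF1, LPCAT4 and PLD3 were at −0.74, −0.66 and −0.60, and the fucosyltransferase FUT6 was at −0.61 (10.76 and 10.14). The PLD3 value is a lower bound in size because its RBM35A+ value of 4.94 is under the floor.

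The remaining lower transcripts belonged to the cytoskeleton, the cell surface and protein quality control. ARPC4, a subunit of the actin-nucleating Arp2/3 complex, read 8.86 and 8.12, and its other probe set was at −0.44. The tropomyosin TPM4 was at −0.67, and CDC42EP1, an effector of the GTPase CDC42, was at −0.64 (11.23 and 10.59). BSG, a surface glycoprotein that escorts lactate transporters, read 11.62 and 10.94, the highest level of the 44. The immunophilin FKBP8 was at −0.69, the ubiquitin ligase RNF126 at −0.65, and BBLN at −0.68.

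Higher polysomal levels were smaller in size. MT1G, a metallothionein, which is a small cysteine-rich protein that binds zinc and copper, read 8.43 and 9.40. At 1.95-fold it was the highest of the 26. MID1, a microtubule-associated ubiquitin ligase, read 5.36 and 6.27 (1.88-fold higher), close to the floor on the RBM35A- array. PKM, the pyruvate kinase that ends glycolysis, read 13.86 and 14.70 (1.80-fold higher) at 1 of the highest levels on the array. It was also the member of the 26 that passed 1.5-fold in total RNA, at 0.68 (14.73 and 15.41). OVOL2, a transcription factor that maintains the epithelial state, read 6.43 and 7.27 (1.78-fold higher), with 0.52 in total RNA (6.22 and 6.74). For PKM and OVOL2, then, total RNA went the same way.

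ARHGEF7, an exchange factor for RAC and CDC42, read 8.38 and 9.17, with 0.23 in total RNA. S100A2, a calcium-binding protein, read 6.25 and 7.01, but another probe set of it differed by 0.16, and in total RNA it was under the floor on both arrays. STT3A, the catalytic subunit of an oligosaccharyltransferase, read 5.81 and 6.55. CDC20, the activator of the anaphase-promoting complex, read 8.04 and 8.77, with 0.07 in total RNA (9.84 and 9.91). The CDC20 transcript was thus higher in polysomal RNA at a nearly level amount of total RNA. SNRPA, the U1 snRNP protein A, read 12.29 and 12.95 in polysomal RNA, while in total RNA it read 12.24 and 12.04. GALK1, the galactokinase, read 5.06 and 5.74, while in total RNA it read 6.16 and 5.75. Their total RNA differences, −0.20 and −0.40, were the lowest of the 26 genes.

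Of the other higher transcripts, RBBP6, a ubiquitin ligase that also takes part in mRNA 3′ end formation, read 7.81 and 8.46, with a further probe set at 0.40. ZRSR2, a splicing factor of the minor spliceosome, read 5.33 and 6.03, and PPIL2, a cyclophilin-like ubiquitin ligase, was at 0.61. SLPI, a secreted inhibitor of leukocyte protease, read 7.12 and 7.74, and HSPG2, the basement membrane proteoglycan perlecan, read 6.69 and 7.31. The lysosomal galactosidase GLA was at 0.66 (6.36 and 7.02), the ATP-gated channel P2RX4 at 0.66 and the monoacylglycerol lipase MGLL at 0.60. MKNK2, a kinase of the cap-binding factor eIF4E, was at 0.60 (5.59 and 6.19). The Golgi proteins TMF1 and YIPF1 were at 0.63 and 0.59, the endosomal CCDC93 at 0.62, the cullin adaptor KLHL21 at 0.67, the HSP70 cofactor HSPBP1 at 0.60 and FAM8A1 at 0.64. SSBP1, which binds mitochondrial single-stranded DNA, read 8.49 and 9.08, with a further probe set at 0.13.

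Some of these genes were read by other probe sets too. Among the 44 lower genes, 9 had another measured probe set, 10 in all. All 10 of these lay below 0, with a median of −0.56 and a range from −1.66 to −0.00, and 5 of them passed 1.5-fold. Over all genes, 22 of 480 second probe sets (4.58%) were at least 1.5-fold lower and 2 (0.417%) at least 1.5-fold higher, so second probe sets as a whole tilted to the lower side at that size. The median of the 480 was −0.02, and their share below 0 was not counted. Among the 26 higher genes, 3 had another measured probe set, and these lay at 0.13, 0.16 and 0.40. All 3 were above 0, but 0 of them passed 1.5-fold. Without probe sets of shared sequence, 36 genes were at least 1.5-fold lower and 23 at least 1.5-fold higher, all among the 44 and the 26. CCDC85B, PCK1, FUT6 and ZRSR2 are among the genes measured only by probe sets of shared sequence, so these are uncertain as single genes.

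Total RNA of the same genes put these differences in context. Of the 44 lower genes, 35 were also below 0 in total RNA on their chosen probe sets, 0 of them by 1.5-fold. The median of the 44 there was −0.15. Of the 26 higher genes, 16 were above 0 in total RNA, 4 were below, and 6 were under the floor on both total RNA arrays, with a median of 0.08. Over all 3391 genes, 1593 (47%) were above 0 in total RNA and 1515 (44.7%) below. At 1.5-fold, total RNA held 50 higher genes (1.47%) and 13 lower ones (0.383%), so the tilt at that size was toward higher levels, opposite to polysomal RNA. The tilt between fractions was not tested. The polysomal and total RNA differences had a correlation of r = 0.279 across the 3391 genes, which are no independent replicates. The 2 fractions came from separate arrays, and their differences were not tested against each other.

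**Figure D3:**
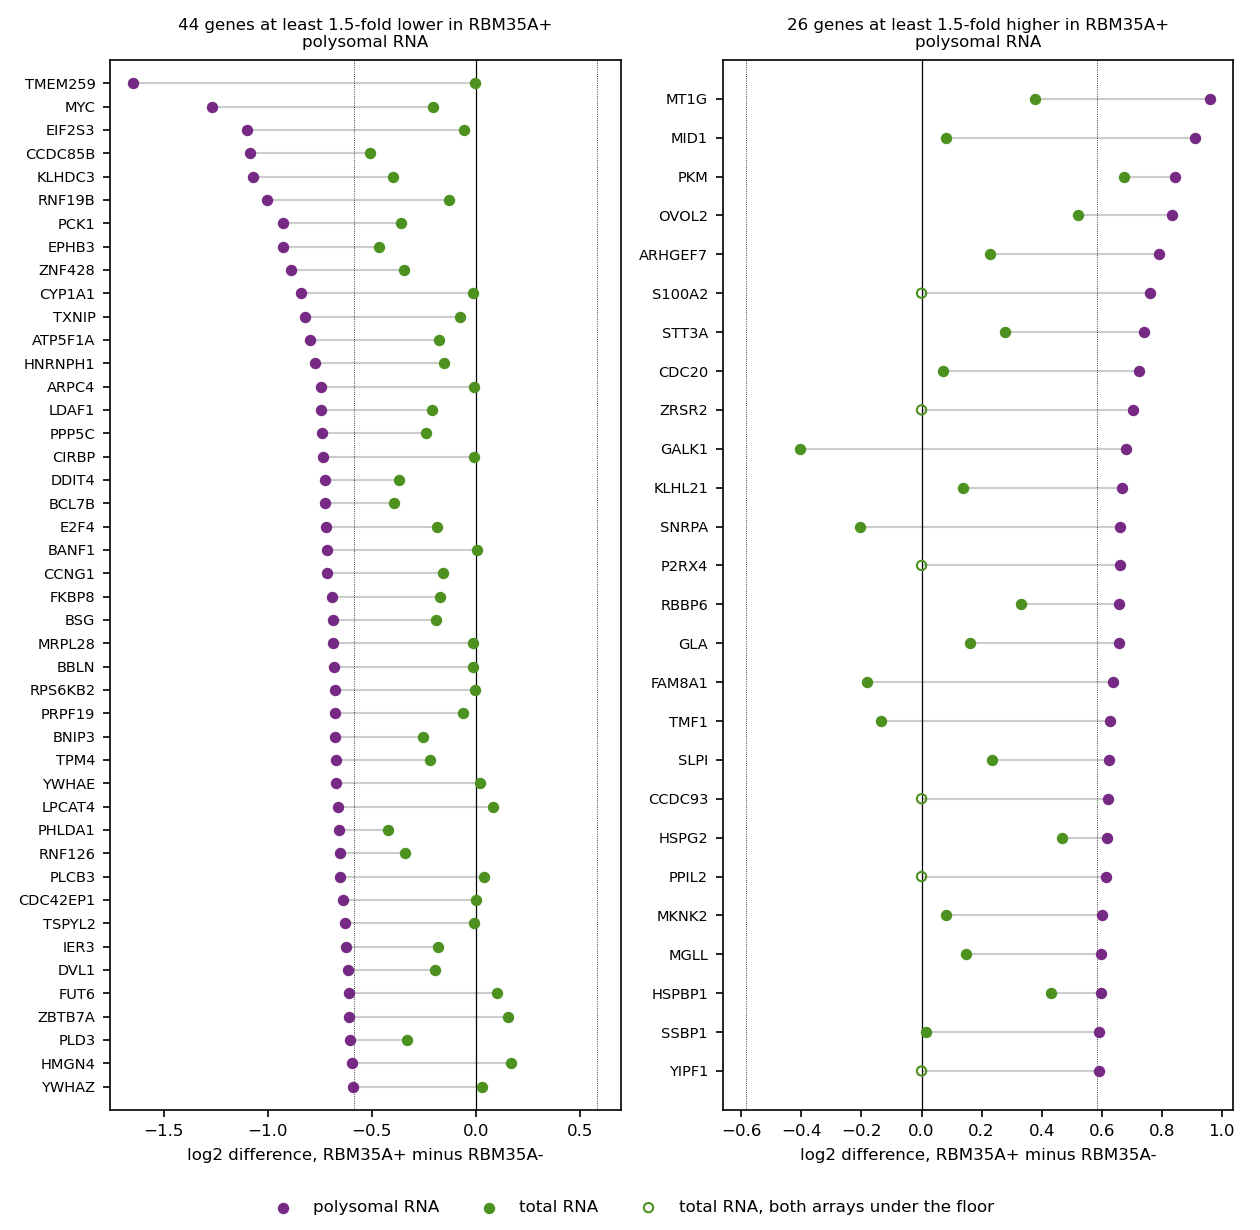
RBM35A+ minus RBM35A- difference (log2, x axis) in polysomal RNA (purple) and total RNA (green, open where both total RNA arrays were under the floor) of the 44 lower genes (left) and the 26 higher genes (right), 1 row per gene, with dotted lines at 1.5-fold. Each total RNA point lies closer to 0 than the polysomal point of the same gene, with PKM at 0.68 the farthest out among the higher genes.

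Other properties of the lower genes were set beside those of all genes. In the RBM35A- cells their polysomal values tended to lie under their total RNA values: the median polysomal minus total difference was −0.67, with 30 of 44 genes below 0, against 0.14 over all genes. For the higher genes this median was 0.15, with 17 of 26 above 0. Over all 3391 genes, 1973 were above 0 and 1391 below. The same measure was −4.51 at the 5′ and −0.30 at the 3′ control of beta-actin, and the part of that difference between ends in the genes' values was not tested. The fractions were normalized apart, and the RBM35A- polysomal array enters both this measure and the comparison itself, so the values are given side by side only. Genomic span, the distance from a gene's start to its end in RefSeq, was shorter for the lower genes. Its median was 12.01 kb for the 44 lower genes, 27.7 kb for the 26 higher genes and 26.7 kb for all 3391. The longest span among the lower genes was 55.9 kb, while spans over all genes reached 2304 kb.

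Split into quintiles by span, the genes of up to 9.12 kb held 19 lower and 4 higher genes of 679. The next quintiles held 11, 11, 3 and 0 lower genes of 678 each, which puts the share of lower genes at 2.80%, 1.62%, 1.62%, 0.442% and 0% from the shortest quintile to the longest. The higher genes showed no such order, with 4, 8, 8, 1 and 5. In total RNA the numbers of genes at least 1.5-fold lower were 2, 4, 2, 2 and 3 over the same quintiles. Chromosome 19, which is rich in short genes, held 11 of the 44 lower genes (25%) and 3 of the 26 higher genes (11.5%), against 258 of all genes measured (7.61%). The 11 were TMEM259, ZNF428, PPP5C, CIRBP, FKBP8, BSG, TPM4, RNF126, FUT6, ZBTB7A and PLD3. The median span of these 11 was 12.4 kb, and that of the 33 lower genes on other chromosomes was 8.57 kb, against 15.1 kb and 28.2 kb for all genes on and off chromosome 19. Short span was thus also seen among lower genes off chromosome 19. GC content of the 250 bases before the start had a median of 68.2% in 36 lower genes with a RefSeq promoter, 63.9% in 22 higher genes and 65.2% in 2869 genes. These are counts on 1 pair of arrays, with no test, and the part of the 5′ control difference in them was not tested.

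**Figure D4:**
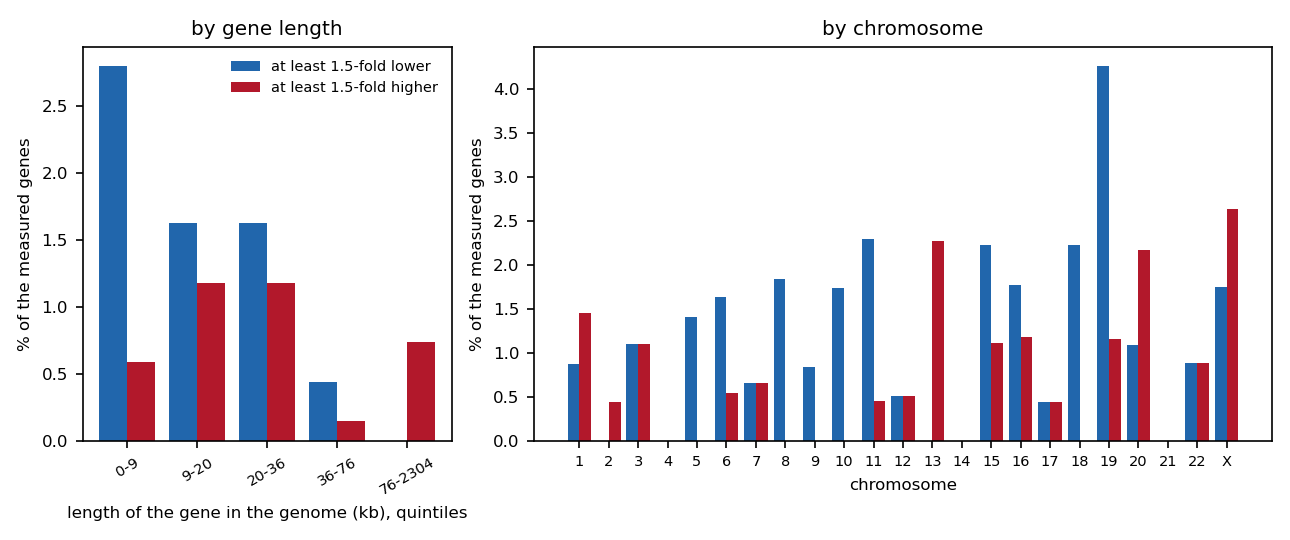
Percent of measured genes at least 1.5-fold lower (blue) or higher (red) in polysomal RNA of RBM35A+ cells (y axes), by quintile of genomic span in kb (left) and by chromosome (right). The share of lower genes is 2.80% in the quintile with the shortest spans and 0% in that with the longest, and it is 4.26% on chromosome 19.

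Gene groups were described from 47 lists of pathways, complexes and markers, by their members above and below 0 and their medians. The same over all 3391 genes was 56.4% above 0 and a median of 0.02. Of the 43 lists with at least 5 measured members, 32 had a median within 0.1 of 0, and the medians ran from −0.21 to 0.49. For lists named below with a median at least 0.05 from 0, the range or the values that moved over the alternative settings are given beside it where they changed it by more than 1.5 times. The alternatives include a setting with neither filter nor floor that was chosen after seeing the data.

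Metallothioneins had the highest median, 0.49 over 8 measured genes, of which 7 were above 0 and 1, MT1G, passed 1.5-fold. In total RNA their median was 0.08. Beside MT1G, MT1E read 14.37 and 14.89, MT1F 11.22 and 11.72, and MT1H 10.72 and 11.22. MT1X went the other way, at −0.10 (9.15 and 9.04). These genes are near-identical in sequence, 5 of the 8 are read by probe sets that can hybridize with several family members, and the median was 0.20 without probe sets of shared sequence. The genes are therefore uncertain as single genes. Metallothionein genes are switched on by MTF1, a zinc-sensing transcription factor that binds short metal response elements in their promoters. The MTF1 transcript had a difference of 0.44, and a part of MTF1 in the metallothionein values was not tested. To show the upstream sequence of a member above 0 and of the member below 0, the 250 bases before the start of MT1H and of MT1X are printed from RefSeq (GRCh38.p14, + strand of chromosome 16, MT1H at chr16:56669564-56669813 and MT1X at chr16:56682220-56682469). Capitals mark matches to the core of the metal response element, TGCACNC or TGCGCNC, on either strand.
MT1H: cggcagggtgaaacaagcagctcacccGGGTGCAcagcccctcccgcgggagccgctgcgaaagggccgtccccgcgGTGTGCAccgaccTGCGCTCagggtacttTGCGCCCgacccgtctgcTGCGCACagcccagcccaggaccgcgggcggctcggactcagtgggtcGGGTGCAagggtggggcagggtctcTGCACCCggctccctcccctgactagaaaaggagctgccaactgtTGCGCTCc
MT1X: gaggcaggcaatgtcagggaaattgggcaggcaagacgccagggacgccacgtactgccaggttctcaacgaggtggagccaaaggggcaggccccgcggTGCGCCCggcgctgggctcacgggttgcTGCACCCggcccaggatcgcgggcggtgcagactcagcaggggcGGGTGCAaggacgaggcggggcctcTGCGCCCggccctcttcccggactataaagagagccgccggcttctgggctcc

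The MT1H promoter held 8 matches, 5 on the printed strand and 3 on the other, and the MT1X promoter held 4, 3 and 1. MT1B and MT4 held 3 each, fewer than MT1X, though their polysomal differences were above 0, at 0.49 and 0.20. A link between number of matches and difference was not tested. Of 4371 promoters of the same length from measured genes, 33.4% held at least 1 match and 0.778% held at least 4. A match describes the letters of the window and does not show that MTF1 binds there. Promoters of MT1G, MT1E, MT1F and MT3 were not in the table used. The wider list of zinc and heavy metal genes, which includes 5 metallothioneins, had a median of 0.25 with 10 of 17 above 0. That median was 0.03 without probe sets of shared sequence and 0.06 with neither filter nor floor. Its members included the zinc importer SLC39A6 at 0.37, while the zinc transporter SLC30A9 was at −0.29.

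Cell division genes were mostly above 0 in polysomal RNA. Of 32 measured mitosis genes 26 were above 0, with a median of 0.16 against −0.04 in total RNA, although CDC20 alone passed 1.5-fold. The kinetochore protein NDC80 was at 0.48, the mitotic kinase AURKA at 0.40 (other probe set 0.33) and securin, PTTG1, at 0.40. Below 0 were the microtubule destabilizer STMN1 at −0.40 and the checkpoint protein MAD2L1 at −0.27. DNA replication genes had 18 of 25 above 0 and a smaller median of 0.06 (0.02 to 0.12 over the alternatives), with the polymerase subunit POLE (0.58), the helicase subunit MCM7 (0.42) and the sliding clamp PCNA (0.37) highest and 0 past 1.5-fold either way.

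Energy metabolism lists had medians from −0.00 to 0.09. Of 51 genes of the respiratory chain and ATP synthase 36 were above 0, with a median of 0.09 against −0.05 in total RNA. UQCRC2 of complex III was at 0.51, COX7A2 of complex IV and SDHA of complex II at 0.42 each, while ATP5F1A (−0.80) and cytochrome c, CYCS (−0.37), lay lowest. Citrate cycle and matrix enzymes had 12 of 18 above 0 and a median of 0.09 (0.02 to 0.16 over the alternatives), with cytosolic aconitase ACO1 at −0.56. The list of glycolysis and glucose metabolism had a median of −0.00, but its members were spread. PKM (0.84) and GALK1 (0.68) were higher, and PCK1 (−0.93) was lower, by at least 1.5-fold. The aldolases ALDOC and ALDOA were at −0.56 and −0.50. Drug-metabolizing enzymes and ABC transporters had 17 of 24 above 0 and a median of 0.12 (0.02 to 0.14), with CYP3A5, a cytochrome P450 of liver and gut, at 0.56 and the peroxisomal transporter ABCD3 at 0.47, while CYP1A1 was lowest. In total RNA the CYP3A5 difference was larger, 1.73 (5.41 and 7.14). Solute carriers had 23 of 35 above 0 and a median of 0.09 (0.02 to 0.09), with 0 past 1.5-fold either way. Annexins and S100 proteins had 8 of 10 above 0 and a median of 0.12, with S100A10 at 0.45 next to S100A2. That median ran up to 0.17 over the alternatives and was 0 with neither filter nor floor.

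The list with the lowest median was that of ATF4, the transcription factor of the amino acid response, and its targets, where 18 of 19 measured genes were below 0. The median was −0.21, against −0.06 in total RNA, and 1 gene, DDIT4, passed 1.5-fold. ATF4 itself read 12.71 and 12.27, CEBPB was at −0.45, and the proline synthesis enzyme PYCR1 was at −0.39. The exception was ATF5, at 0.01. The list of tRNA synthetases, of which several are ATF4 targets too, was split evenly, with 7 above and 7 below 0. Its median was −0.01, and its members ran from SARS1 at −0.38 to KARS1 at 0.41. The ATF4 targets in it were not taken apart from the other members.

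Immediate early and short-lived mRNAs had 18 of 27 members below 0 and a median of −0.17 (−0.20 to −0.04 over the alternatives), against −0.02 in total RNA. MYC, PHLDA1 and IER3 were lower by at least 1.5-fold and 0 were higher, with the MAPK phosphatase DUSP6 at −0.49. Inhibitor of NF-kappa-B, NFKBIA, stood on the other side at 0.58 (8.03 and 8.61), just inside 1.5-fold, as did the antiproliferative gene BTG3 at 0.35. Wnt target and crypt genes had 8 of 11 below 0 and a median of −0.12 (−0.20 to −0.10), with MYC and EPHB3 past 1.5-fold, but CCND1, another Wnt target, was at 0.01 (other probe sets −0.24 and 0.15) and the Wnt transcription factor TCF7L2 at 0.38. MYC is in both of these lists.

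Secreted mucins and trefoil factors had 6 of 7 below 0 and a median of −0.20, which was −0.07 without probe sets of shared sequence, −0.08 when all probe sets of a gene were averaged and −0.01 with neither filter nor floor. Members included TFF3 at −0.27 (other measured probe sets 0.02 and −0.03) and MUC5AC at −0.21. The goblet cell protein FCGBP was at 0.25. The values of MUC2, the main mucin of the colon, were nearly level in polysomal RNA at −0.07, whereas its total RNA difference was 1.46. Selenoproteins had 6 of 7 below 0 and a median of −0.15 (−0.17 to −0.07 over the alternatives). The lipid peroxidase GPX4 read 11.64 and 11.23, GPX1 was at −0.33, and SEPHS2, which makes the selenium donor, was at 0.24. Intestinal epithelial markers had 12 of 16 below 0 and a median of −0.10 (−0.13 to −0.06), led by CEACAM5 at −0.56 and KRT19 at −0.51. Interferon and MHC class I genes had 10 of 17 below 0 and a median of −0.11 (−0.13 to −0.00). Their lowest member was B2M at −0.51, but its other probe sets were at 0.12 and −0.06, and the peptide transporter TAP1 was at 0.40. None of the mucin, selenoprotein, marker or interferon members (0) passed 1.5-fold.

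The translation machinery was close to level. Of 46 measured ribosomal proteins 27 were below 0, with a median of −0.02 and a range from −0.26 for RPL8 to 0.25 for RPL31, so 0 passed 1.5-fold. Translation initiation factors split evenly, 14 above and 14 below 0, with a median of −0.01. Within eIF2 the subunits differed: EIF2S3 was at −1.10, EIF2S2 at −0.07 and EIF2S1 at 0.33. The exchange factor subunit EIF2B5 was at 0.44, the exon junction helicase EIF4A3 at 0.46, and the eIF4E-binding repressor EIF4EBP1 at −0.49. Elongation and release factors ran from −0.29 for EEF2 to 0.14 for TSFM.

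Protein turnover and RNA processing had members in both directions. Ubiquitin ligases and adaptors had 18 above and 18 below 0, with KLHDC3, RNF19B and RNF126 lower and MID1 higher by at least 1.5-fold. Proteasome subunits had 20 of 32 above 0 and a median of 0.05 (0.04 to 0.08), with PSMC1 at 0.54 and 0 past 1.5-fold. Splicing factors had 39 of 60 above 0 and a median of 0.03, with SNRPA higher and HNRNPH1 and PRPF19 lower by at least 1.5-fold. Of the lysosome and autophagy genes, 24 of 41 were above 0, with GLA the 1 past 1.5-fold and LAMP1 at 0.57, while the autophagosome protein MAP1LC3B was at −0.50. Genes with exons known to be regulated by ESRP1 had 9 of 13 above 0 and a median of 0.02, with NF2 highest at 0.53 and CD46 lowest at −0.15. Which exons these probe sets read was not analysed here.

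**Figure D5:**
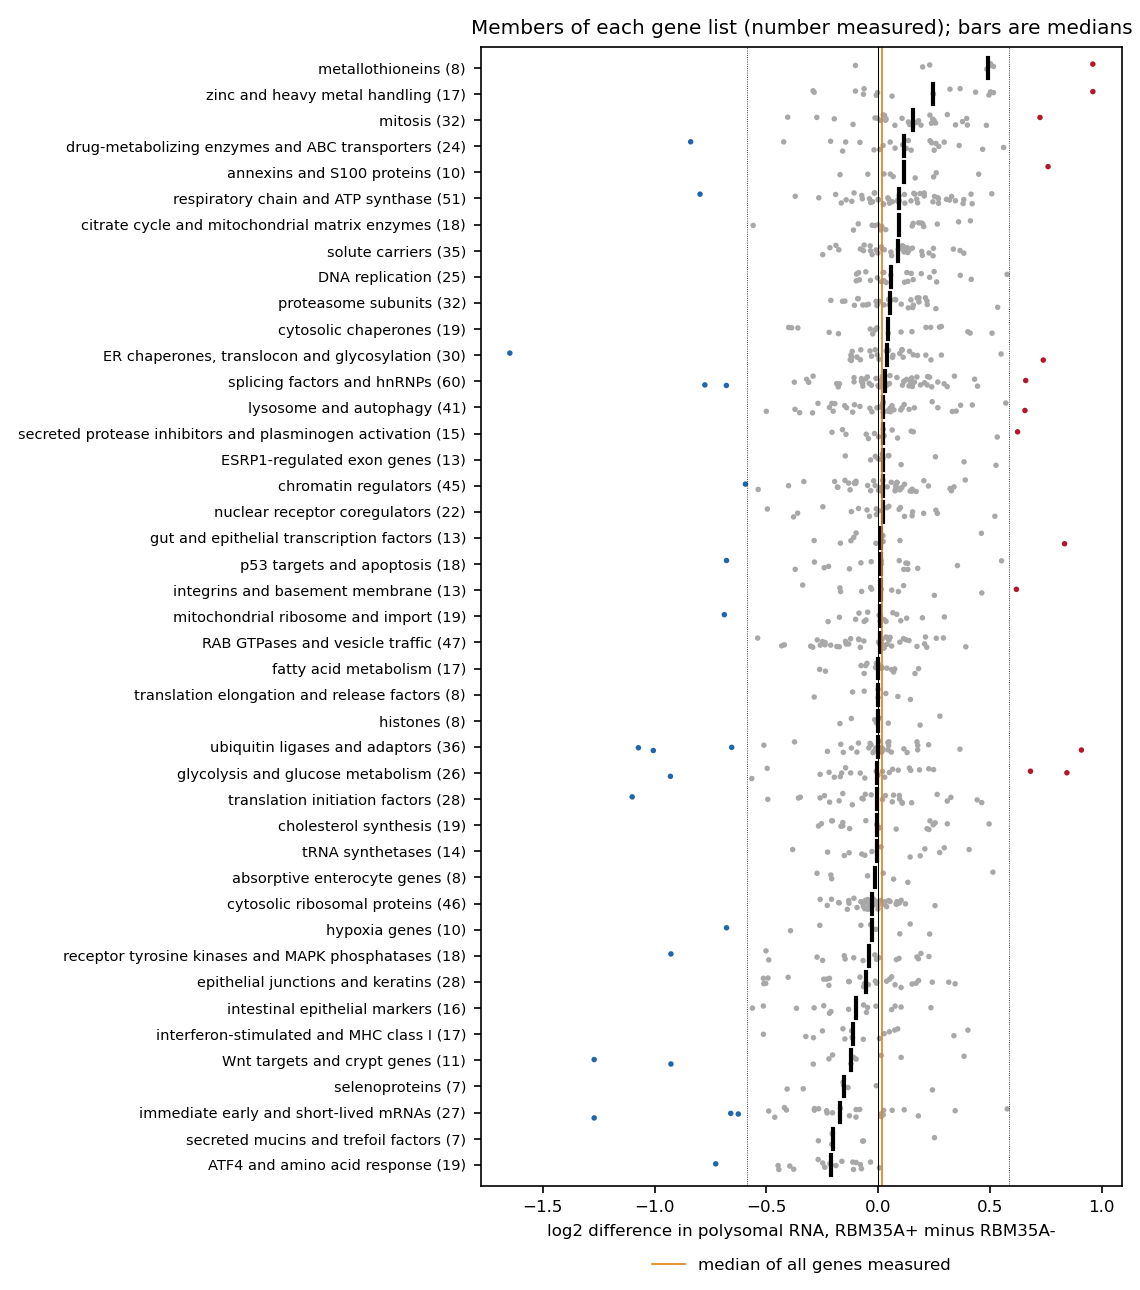
RBM35A+ minus RBM35A- difference in polysomal RNA (log2, x axis) of each member (points; blue and red are at least 1.5-fold lower and higher, at the dotted lines) and the median (black bar) of each gene list with at least 5 measured members, 1 row per list, with the median of all genes as an orange line. Metallothioneins lie farthest to the right at 0.49 and the ATF4 list farthest to the left at −0.21, and 32 of the 43 medians lie within 0.1 of 0.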

How the data were processed

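The deposited values are log2 values that the authors made with GCRMA, per the submitters' processing notes, with no version given in the sources used here. That method models the background of each probe by its sequence and combines a set's probes into 1 value. After sorting, the 2 polysomal arrays were alike to within 6.61e-06 and the 2 total RNA arrays to within 4.29e-06, so each pair had been normalized to 1 distribution, apart from the other pair. A shift of most genes on 1 array would be removed by that step. On each polysomal array 4312 of 12626 probe sets reached the floor of 5.

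Of the probe sets, 10943 had 1 symbol in the array annotation, 546 had several, 1070 had none and 67 were controls. Symbols were updated through RefSeq gene IDs (GRCh38.p14) for 10934 probe sets, and 9 kept the annotation's symbol. Spans, chromosomes and promoters are RefSeq's for that build and were matched by gene, since no build is named for the arrays. Protein lengths, which had been planned, were not used here. Differences are RBM35A+ minus RBM35A-. No test was possible with 1 array a group. Genes were counted at 2-fold and 1.5-fold. Any gene past 1.5-fold could be named, as could the 4 highest and 4 lowest members of a list and members with a fixed role in it. The genes, gene lists and comparisons were chosen with earlier results of these data known. Alternatives were other floors, other choices of probe set, other filters and the removal of trends on level or on fraction. The steps were tested on simulated data. Python 3.11.15, pandas 2.3.3, numpy 2.4.6, statsmodels 0.14.6 and matplotlib 3.10.9 were used.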

Additional observations from a re-analysis of the deposited data

Results flagged for a closer look

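GALK1, the galactokinase, and SNRPA, the U1 snRNP protein A, were at least 1.5-fold higher in polysomal RNA of RBM35A+ cells (0.68 and 0.66) but lower in their total RNA (−0.40 and −0.20). Each value is 1 array against 1, and the difference between the fractions was not tested. The 5′ control probe set of 18S ribosomal RNA read 11.6 on the RBM35A+ total RNA array and 2.22 on each of the other 3 arrays. This concerns total RNA, whose values are set beside the polysomal ones. Of the 1616 probe sets without a single gene symbol, 484 were measured in polysomal RNA, and 11 of them differed by at least 1.5-fold, 2 higher and 9 lower. Of the 3391 genes, 26 (0.767%) were at least 1.5-fold higher and 44 (1.3%) lower, so such probe sets are also found at a low share among genes. The lowest of the 11 read 9.88 and 8.42 in polysomal RNA of RBM35A- and RBM35A+ cells and 8.11 and 9.80 in total RNA. The highest of the 11 read 8.12 and 9.30 in polysomal RNA and was under the floor on both total RNA arrays.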

How the results depend on the processing

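The number of genes at least 2-fold lower, 6, became 3 with a floor of 6. It was also 3 after removal of the trend on the polysomal minus total difference. With the floor of 6, the RBM35A+ values of EIF2S3 (5.73), CCDC85B (5.41) and KLHDC3 (4.64) were raised to 6. Their differences were then −0.83, −0.50 and −0.07. With the trend removed, EIF2S3, KLHDC3 (−0.78) and RNF19B (−0.93) fell within 2-fold. The cause of that trend was not tested. Over all alternatives the number at least 2-fold lower ran from 3 to 8, and the number at least 2-fold higher was 0 in each. The number at least 1.5-fold higher ran from 18 to 37 and that at least 1.5-fold lower from 32 to 57. An alternative with neither filter nor floor was chosen after seeing the data. Of the named genes' values 45 moved by more than the probe set SD and 700 did not, and 0 changed sign. Of the list medians 39 moved by more than that SD over the square root of the number of members and 434 did not, and 0 of those at least 0.1 from 0 changed sign. Many of the named genes' values could not move: with 1 probe set well above the floor, the choices of floor, filter and probe set return the same value. Named genes not measured under a setting were left out of the count for it. No paired analysis was possible because each group had 1 array and the labels give no replicate numbers. Low signal limits the 82 genes under the floor on 1 polysomal array, whose differences are lower bounds in size.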

Other observations

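Probe sets that did not stand for their gene gave a different picture of the lower side. Of 480 such measured probe sets, 22 (4.58%) were at least 1.5-fold lower in polysomal RNA of RBM35A+ cells and 2 (0.417%) at least 1.5-fold higher, against 1.3% and 0.767% of the chosen ones, while their median was −0.02. In 19 cases the chosen probe set of the same gene lay within 1.5-fold, and 17 of these were lower. The following genes were picked after their values were seen. ITGA6, an integrin subunit that binds laminin, read 7.95 and 6.72 on a second probe set (−1.23) but differed by −0.03 on the chosen one. In total RNA that second probe set was at 0.12. A further measured ITGA6 probe set read 5.07 and 4.29, which with the floor gives −0.07, a lower bound in size. ERBB2, a receptor tyrosine kinase, read 7.49 and 6.49 on a second probe set and differed by −0.25 on the chosen one. VEGFA, the angiogenic growth factor, was at −0.76 on a second probe set, −0.07 on a further one and −0.03 on the chosen one. The endoplasmic reticulum chaperone CALR was at −0.73 on a second probe set and −0.12 on the chosen one. PRKAR1A, a regulatory subunit of protein kinase A, was at −0.68 and 0.13.

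The higher cases were CD44, the hyaluronan receptor, at 0.75 (5.74 and 6.49) against 0.10 on the chosen probe set, and UBE3B, a ubiquitin ligase, at 0.59 against −0.37. Further measured CD44 probe sets lay within 1.5-fold, at 0.29 and 0.04. For both genes, the probe set past 1.5-fold in polysomal RNA was also higher in total RNA, at 0.60 for CD44 and 1.04 for UBE3B. Which exons or transcript positions these probe sets read was not analysed here, and the part of the lower 5′ controls of the RBM35A+ polysomal array in them was not tested.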
